A study of Homo sapiens with 21 samples.

Results

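The genes that copy DNA and supply its nucleotides were followed through every RNA-seq condition of a study of METTL4, a DNA N6-adenine methyltransferase, and hypoxia in cancer cell lines. The list holds 41 genes, chosen by symbol for their textbook roles, with earlier results of these data known. It takes in 10 origin licensing genes, 6 helicase activation genes, 9 polymerase and primase genes, 11 genes of the sliding clamp, its loader, the single-strand binding protein RPA and fragment processing, and 5 genes of dNTP supply and uracil removal. All 41 were present in each of the 4 deposited tables, which together name 20970 genes, and all 41 passed the filter on low values. FADU is a head and neck cancer line and BFTC909 a urothelial carcinoma line of the renal pelvis. In each line, Scramble-si cells were kept in normoxia (18% O2) or hypoxia (1% O2) for 18 h, and METTL4-si cells were kept in hypoxia for 18 h, with 2 libraries in each group. The study's methods describe these cells as stable knockdowns made with lentiviral shRNA, although the labels write si. The third table held FADU cells in normoxia with a control vector, METTL4 overexpression (OE) or OE of the long noncoding RNA RP11-390F4.3, with 2 libraries in each group, all from stable transfection. The fourth table held FADU cells in hypoxia, with 1 CRISPR control library and 1 library from each of 2 clones whose METTL4 catalytic DPPW motif was mutated.

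Cells copy their DNA once per cycle. Before S phase, ORC, CDC6 and CDT1 load the ring-shaped MCM2-7 complex onto origins, which licenses them. At S phase entry CDC45 and the GINS complex join MCM2-7 to make the active helicase, with the help of MCM10. Primase and polymerase alpha then lay down primers, polymerases epsilon and delta extend them, RFC loads the PCNA clamp, and FEN1 and LIG1 join the lagging-strand fragments. Ribonucleotide reductase (RRM1 and RRM2), thymidylate synthase (TYMS) and thymidine kinase (TK1) supply the dNTPs, and UNG removes uracil from DNA. Transcription of many of these genes is known to rise with E2F factors as cells enter S phase, so in bulk RNA from a growing culture a lower value can mean fewer cells in S phase or less RNA per cell, and the libraries cannot tell these apart.

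A sequence feature that the choice of members did not use was found in 17 of the 35 promoter windows matched. RefSeq promoter windows (GRCh38.p14, 250 bases before to 50 after the annotated start) were matched to 35 of the 41 members. MCM4, MCM5, GINS4, POLD3, RPA2 and RPA3 were not matched. Letters of an E2F-type site (TTTCCCGC, TTTGGCGC, TTTCGCGC or TTTGCCGC, on either strand, overlaps counted) were found in 17 of the 35 windows, 48.6%, and in 3.33% of all 27305 windows. In 12 members a match lay wholly before the start. CCAAT was found in 21 of 35 member windows, 60%, against 35.7% of all. TTTGAA, the core of the CHR element of many mitosis genes, was found in 1 of 35, against 15.4% of all. ACGTG, the core of the hypoxia response element, was found in 11 of 35, 31.4%, against 21.6% of all. A match is a run of letters and not a measured binding site. The bases before the start are printed for PCNA, MCM6, GINS2, RFC3 and POLA2, which come from the licensing, helicase, polymerase and clamp groups and which all fell in at least 1 comparison described here. Capitals mark the E2F-type letters, and GCGGGAAA is TTTCCCGC read from the other strand.
PCNA, chr20:5126623-5126872, reverse strand: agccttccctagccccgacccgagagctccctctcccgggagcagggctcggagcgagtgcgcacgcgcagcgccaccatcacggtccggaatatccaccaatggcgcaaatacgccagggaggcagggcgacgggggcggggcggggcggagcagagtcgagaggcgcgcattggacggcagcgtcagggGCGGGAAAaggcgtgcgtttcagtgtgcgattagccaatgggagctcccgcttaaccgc
MCM6, chr2:135876444-135876693, reverse strand: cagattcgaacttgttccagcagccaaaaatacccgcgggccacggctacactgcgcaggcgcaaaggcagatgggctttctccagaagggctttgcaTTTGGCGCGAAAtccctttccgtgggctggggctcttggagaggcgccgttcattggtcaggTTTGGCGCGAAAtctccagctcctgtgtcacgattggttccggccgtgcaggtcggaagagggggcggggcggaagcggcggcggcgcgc
GINS2, chr16:85688955-85689204, reverse strand: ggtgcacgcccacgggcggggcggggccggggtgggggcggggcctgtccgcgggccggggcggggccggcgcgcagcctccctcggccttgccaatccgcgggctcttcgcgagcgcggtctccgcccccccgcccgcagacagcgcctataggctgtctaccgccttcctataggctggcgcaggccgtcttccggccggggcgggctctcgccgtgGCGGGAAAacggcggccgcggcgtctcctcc
RFC3, chr13:33817899-33818148, forward strand: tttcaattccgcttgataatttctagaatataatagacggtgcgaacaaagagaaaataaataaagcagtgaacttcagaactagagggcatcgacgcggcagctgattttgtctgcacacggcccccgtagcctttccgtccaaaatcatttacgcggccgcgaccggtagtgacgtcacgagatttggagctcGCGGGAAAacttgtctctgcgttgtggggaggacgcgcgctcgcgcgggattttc
POLA2, chr11:65261712-65261961, forward strand: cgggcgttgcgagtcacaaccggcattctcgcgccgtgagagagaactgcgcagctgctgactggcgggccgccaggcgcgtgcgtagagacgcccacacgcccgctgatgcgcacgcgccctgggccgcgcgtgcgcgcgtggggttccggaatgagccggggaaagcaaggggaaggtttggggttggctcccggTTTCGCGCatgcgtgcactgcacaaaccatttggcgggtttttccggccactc
The match nearest the start lay 31 bases before it in GINS2, 53 in POLA2, 55 in RFC3 and 59 in PCNA. MCM6 stood out with 4 overlapping matches in 2 places, the first beginning 152 bases and the next 90 bases before the start, and each place read as a site on both strands.

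On hg19 (GRCh37, GENCODE), all members are protein-coding genes. The members that recur in the results lie at chr10:13203558-13253110 (MCM10), chr17:38444131-38460909 (CDC6), chr22:35796127-35821424 (MCM5), chr11:65029384-65073430 (POLA2), chr20:5095599-5107272 (PCNA, reverse strand), chr2:10260825-10351851 (RRM2), chr18:657653-673578 (TYMS), chr17:76170172-76183314 (TK1, reverse strand) and chr12:109535402-109564530 (UNG). TYMS shares 3261 bases with ENOSF1 on the opposite strand, UNG 10139 bases with ACACB and FEN1 4259 bases with FADS2 on the same strand, and RPA3 77897 bases with UMAD1 on the opposite strand. POLD3 shares 4683 bases with LIPT2-AS1 and PRIM2 3759 bases with a gene without a symbol, both on the same strand. Some other members share shorter stretches. Whether the counting used strand is not stated in the sources used here, so values of all these members may hold reads of their neighbours.

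Values are TMM-normalized CPM, that is, reads scaled to the size of each library by the authors, and each replicated library held 19038795 to 25410656 reads on genes. Several libraries stood apart or went against their labels. In FADU, METTL4 read 24.2 and 27.1 in the libraries labelled METTL4-si, which is no fall against the 26.6 and 25.3 of Scramble-si hypoxia. In BFTC909 it was 14.4 and 12.2 against 19.0 and 15.6, a log2 difference of -0.36 that missed the threshold (limma adjusted p = 0.0717). METTL4 OE raised it from 35.4 and 32.7 to 158 and 139. CA9, a hypoxia marker, rose in hypoxia from 2.33 and 2.55 to 31.0 and 37.8 in FADU and from 0.358 and 1.17 to 54.0 and 56.2 in BFTC909. In the libraries labelled METTL4-si hypoxia it read 1.87 and 2.22 in FADU, at the level of normoxia, and 5.53 and 5.84 in BFTC909 (log2 -3.53 and -3.07 against Scramble-si hypoxia). In the normoxic OE table it read 0.906 and 0.744 in the control, 9.39 and 9.15 in METTL4 OE and 13.6 and 13.2 in RP11-390F4.3 OE. In the hypoxic mutant table it read 29.8 in the CRISPR control and 10.4 and 15.2 in the clones. In the OE table the 2 columns used for RP11-390F4.3 OE carry another name and were assigned because the other columns of that table were accounted for, and the overexpressed RNA could not be checked by its identifier. GATA3, a luminal marker, was 216 in the first FADU METTL4-si library and 41.1 in the first FADU Scramble-si normoxia library, against 2.19 to 3.19 in the other 4 FADU libraries. It was 128 in the second BFTC909 METTL4-si library and at most 0.964 in the other 5. The BFTC909 table holds only 1 of the 9 luminal breast markers, GATA3, so for this library the name luminal markers rests on GATA3 alone. The epithelial markers KRT8, KRT18 and EPCAM were raised in the same library, at 715, 379 and 26.5. The summed luminal breast list ran from 5.27 to 10.6 in the other 4 FADU libraries and was 441 and 87.0 in those 2. COL3A1, a stromal marker, read 109 and 20.3 in those 2 and at most 0.045 in the other 4. COL1A1, the only other stromal marker in the FADU table, read 6.62 and 5.24 in those 2 and 4.40 to 5.83 in the other 4. A weaker rise, from a sum of 5.84 to 21.7, marked the second RP11-390F4.3 OE library. Of 10 epithelial markers, FADU expressed all 10, while the BFTC909 table held 4, with a sum of 21.5 to 84.7 in 5 libraries and 1122 in the second METTL4-si library. The BFTC909 table held 5 of 6 fibroblast and stroma markers. Their sum was 1013 and 1106 in normoxia, 4438.5 and 4643 in Scramble-si hypoxia and 2479 and 2678 in METTL4-si. What part these differences between libraries have in the results was not tested. Members are called at 1 main limit, stated below. Where a compared group holds a library that carries luminal markers, medians of the members and of the 4 further gene lists are also given without these libraries.

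In normoxia the members were expressed well above the typical gene in both lines. Per kilobase of all annotated exons, their median level was 18.9 CPM in FADU and 16.7 in BFTC909, against 4.31 for all tested genes in each line. TK1, which salvages thymidine, was the highest member in FADU at 107 ± 0.75 (SD, n = 2), followed by PCNA at 92.0 ± 4.2. In BFTC909 PCNA was highest at 135 ± 4.4, MCM7 followed at 82.6, and TK1 was only ninth in order at 31.7 ± 0.64. POLA2, the second subunit of polymerase alpha, was the lowest member in FADU at 3.16, and LIG1 was the lowest in BFTC909 at 4.79. Of the 40 pairs of neighbours in this order, 21 overlapped in their 2 libraries in FADU and 14 in BFTC909, so their order is not settled beyond the spread. The tables were normalized separately, and levels in the 2 lines were not tested against each other.

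The first comparison asked what hypoxia did to the replication genes. In FADU it did little: 3 of 41 members fell and 0 rose, where a call needed a change of at least 1.3-fold and a limma adjusted p under 0.05 over all 16324 genes tested. Over all genes 9.65% fell and 9.73% rose, so the members' share was near the background. Even so, 35 of the 41 lay below 0, with a median log2 fold change of -0.17 against -0.03 for all genes. MCM5, a subunit of the MCM2-7 ring, read 223 and 206 in normoxia and 155 and 146 in hypoxia. Its groups lay well apart, and it was 29.7% lower in hypoxia (log2 -0.51, SE 0.07, adjusted p = 0.00395). TYMS, which makes dTMP, read 116 and 117 in normoxia and 85.8 and 83.6 in hypoxia. Its fall was 27.0% (log2 -0.45, SE 0.06, adjusted p = 0.00358), with libraries of each group close together. GINS3, a GINS subunit, read 28.4 and 28.5 in normoxia and 21.8 and 21.5 in hypoxia (log2 -0.38, SE 0.08, adjusted p = 0.0192), just past the 1.3-fold limit, and its call was lost when any library of either group was left out. The highest member was UNG, at 111 and 113 in normoxia and 117 and 122 in hypoxia, a difference of 0.10 that missed the threshold (adjusted p = 0.468). MCM4 and MCM6, partners of MCM5 in the ring, had values of 0.06 and 0.02. Without the libraries that carry luminal markers the members' median was -0.20, against -0.03 for all genes. How far the number called changed with the library left out is given at the end. With edgeR's quasi-likelihood test on the recovered reads 2 members were lower and 0 higher, and at an unadjusted limma p under 0.05, with no fold limit, 16 were lower and 0 higher. Here and below, the share of all genes was counted only at the main limit. Counts of members at other limits, or by edgeR, have no background beside them.

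In BFTC909 hypoxia lowered the replication genes broadly. Of 41 members, 21 fell and 0 rose, while 18.3% of all 14869 genes tested fell and 17.9% rose. The median log2 fold change was -0.39 against -0.02 for all genes, and 40 of 41 lay below 0. Helicase activation genes fell most often, 5 of 6, followed by 6 of 11 of the clamp, loader, RPA and fragment group and 5 of 10 licensing genes. MCM10, which helps to start the helicase, had the largest fall, from 89.2 and 87.7 in normoxia to 39.5 and 43.5 in hypoxia. That was 52.5% lower (log2 -1.07, SE 0.07, adjusted p = 6.6e-05), the only member past 2-fold in any of the 6 tested comparisons. CDC6, which loads MCM2-7 onto origins, went from 111 and 109 to 62.1 and 64.5 (log2 -0.79, SE 0.08, adjusted p = 0.000274). RFC3, a clamp loader subunit, went from 71.1 and 70.6 to 42.3 and 37.2 (log2 -0.82, SE 0.09, adjusted p = 0.00046). For each of these genes the lowest normoxia library was well above the highest hypoxia library. POLE2, a polymerase epsilon subunit, went from 23.0 and 23.7 to 12.6 and 14.1 (log2 -0.77, SE 0.10, adjusted p = 0.00107). RRM2, the limiting subunit of ribonucleotide reductase, went from 284 and 280 to 171 and 169 (log2 -0.73, SE 0.07, adjusted p = 0.000266). The other 16 members that fell ranged from -0.39 (ORC6) to -0.81 (RFC2), and PCNA among them read 193 and 185 in normoxia and 120 and 122 in hypoxia. LIG1, the ligase that seals fragments, was the only member above 0, at 56.2 and 52.5 against 55.2 and 56.2 (log2 0.04, adjusted p = 0.77). Within the MCM2-7 ring, MCM3 and MCM7 fell, while MCM2, MCM4, MCM5 and MCM6 lay between -0.15 and -0.28 and did not pass. edgeR also found 21 members lower and 0 higher, and at an unadjusted limma p under 0.05 with no fold limit 36 were lower and 0 higher. The count was 21 without the library that carries luminal markers, which is in neither group compared.

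**Figure D1:**
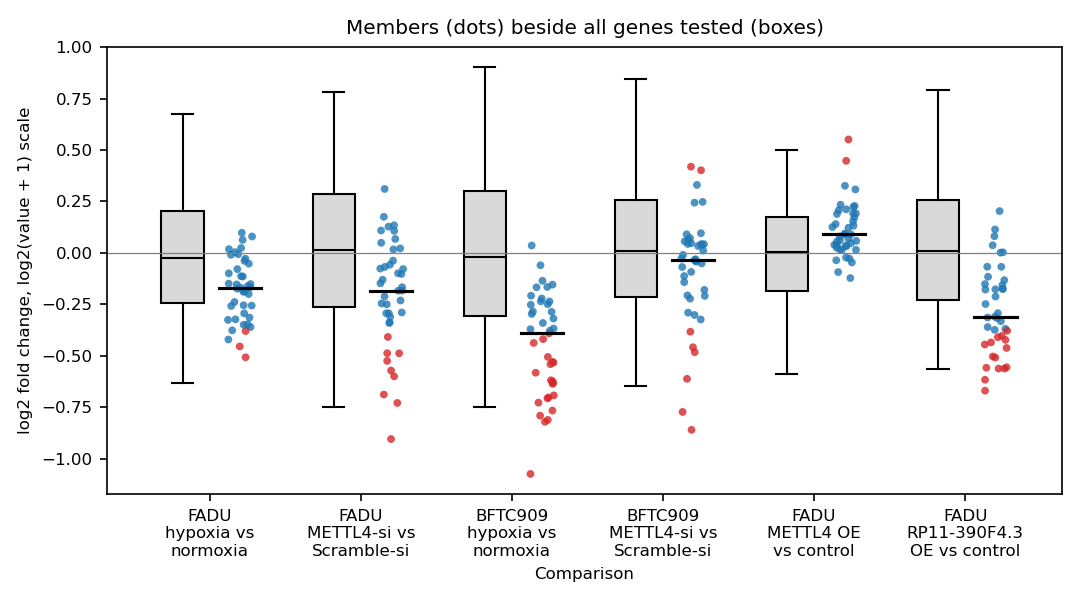
log2 fold change on the log2(value + 1) scale in each tested comparison. Grey boxes show all genes tested (line, median; box, quartiles; whiskers, 5th to 95th percentile), dots show the 41 members, red where called and blue where not, and black bars their medians. The members sit lowest in BFTC909 hypoxia (median -0.39) and RP11-390F4.3 OE (-0.31).

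The second comparison asked what the libraries labelled METTL4-si showed in hypoxia. It uses the same Scramble-si hypoxia libraries as the first, so the 2 sets of values are not independent, and the libraries labelled METTL4-si held CA9 below its level in Scramble-si hypoxia. In FADU, 9 of 41 members were lower and 0 higher, against 15.3% lower and 12.5% higher of all genes. The median was -0.18 against 0.02, with 31 of 41 below 0. UNG, the uracil-DNA glycosylase, had the largest fall, from 117 and 122 in Scramble-si to 69.2 and 58.3 in the libraries labelled METTL4-si. It was 46.6% lower (log2 -0.90, SE 0.09, adjusted p = 0.00088). TK1 went from 174 and 182 to 112 and 102 (log2 -0.73, SE 0.07, adjusted p = 0.000816). PCNA, the sliding clamp, went from 113 and 116 to 76.3 and 65.1 (log2 -0.69, SE 0.09, adjusted p = 0.00213). None of these 3 genes was past the threshold in FADU hypoxia against normoxia, and in each the METTL4-si library without luminal markers was the lower of its pair. MCM4 went from 478 and 470 to 307 and 318 (log2 -0.60, SE 0.06, adjusted p = 0.001), with the library without luminal markers the higher. GINS2, a GINS subunit, went from 57.7 and 54.1 to 42.9 and 34.6 (log2 -0.53, SE 0.11, adjusted p = 0.0131), a call that was lost without either Scramble-si library or without the second METTL4-si library. RPA3, MCM6, CDC6 and RFC2 were the other members that fell, by 0.57, 0.49, 0.49 and 0.41 on the log2 scale. UNG and RPA3 are among the members that overlap a neighbour. No polymerase or primase gene passed, and POLA2 was the highest member, at 37.3 and 32.8 in Scramble-si and 47.3 and 40.3 in METTL4-si (log2 0.31, SE 0.10, adjusted p = 0.059). edgeR found 9 members lower and 0 higher, and at an unadjusted limma p under 0.05 with no fold limit 20 were lower and 2 higher. Without the libraries that carry luminal markers the members' median was -0.18, against -0.01 for all genes. UNG was then at -1.03, PCNA at -0.80, MCM4 at -0.58 and GINS2 at -0.68. The number of members called changed with the library left out, as given at the end.

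In BFTC909 few members differed in the libraries labelled METTL4-si, and 4 of the 8 called were dNTP supply genes. Of 41 members 6 were lower and 2 higher, against 11.7% lower and 13.2% higher of all genes, with a median of -0.03 against 0.01, so the list as a whole was near the background. Of the 5 dNTP and uracil genes 4 fell, and of all the other members 2 fell and 2 rose. RRM2 went from 171 and 169 in Scramble-si hypoxia to 88.2 and 98.2, 44.9% lower (log2 -0.86, SE 0.07, adjusted p = 0.000217). TYMS went from 104 and 108 to 65.0 and 58.2 (log2 -0.77, SE 0.08, adjusted p = 0.000442). RRM1, the large reductase subunit, went from 185 and 198 to 157 and 137 (log2 -0.38, SE 0.08, adjusted p = 0.0103), and TK1 from 53.1 and 59.2 to 34.8 and 47.2 (log2 -0.46, SE 0.14, adjusted p = 0.0377). The TK1 pair was the most spread of the 4 genes, and its lower value came from the library without luminal markers. Among licensing genes CDC6 went from 62.1 and 64.5 to 43.4 and 38.8 (log2 -0.61, SE 0.08, adjusted p = 0.00131) and ORC1, an origin recognition subunit, fell by 0.48. POLE2 rose from 12.6 and 14.1 to 19.3 and 17.1 (log2 0.42, SE 0.10, adjusted p = 0.0198), below its normoxia values of 23.0 and 23.7. POLD3, a polymerase delta subunit named after its values were seen, rose from 47.7 and 48.4 to 66.5 and 61.2 (log2 0.40, SE 0.07, adjusted p = 0.00663). Neither rise was called with libraries centred on their median or with a pseudocount of 5, and POLD3 is among the members that overlap a neighbour. No helicase activation gene and no gene of the clamp, loader and RPA group passed. The mitosis list moved in the same libraries, with 17 of 20 genes lower and a median of -0.47, or -0.41 without the library that carries luminal markers. Without that library the members' median was -0.06, against 0.00015 for all genes, with RRM2 at -0.94, CDC6 at -0.53 and POLE2 at 0.50. POLE2 missed the threshold without any other single library. With each library left out in turn the members higher ranged from 0 to 3 and those lower from 3 to 5, where leaving out the second Scramble-si hypoxia library gave 0 higher and 3 lower. edgeR found 2 members higher and 6 lower, and at an unadjusted limma p under 0.05 with no fold limit 4 were higher and 11 lower.

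**Figure D2:**
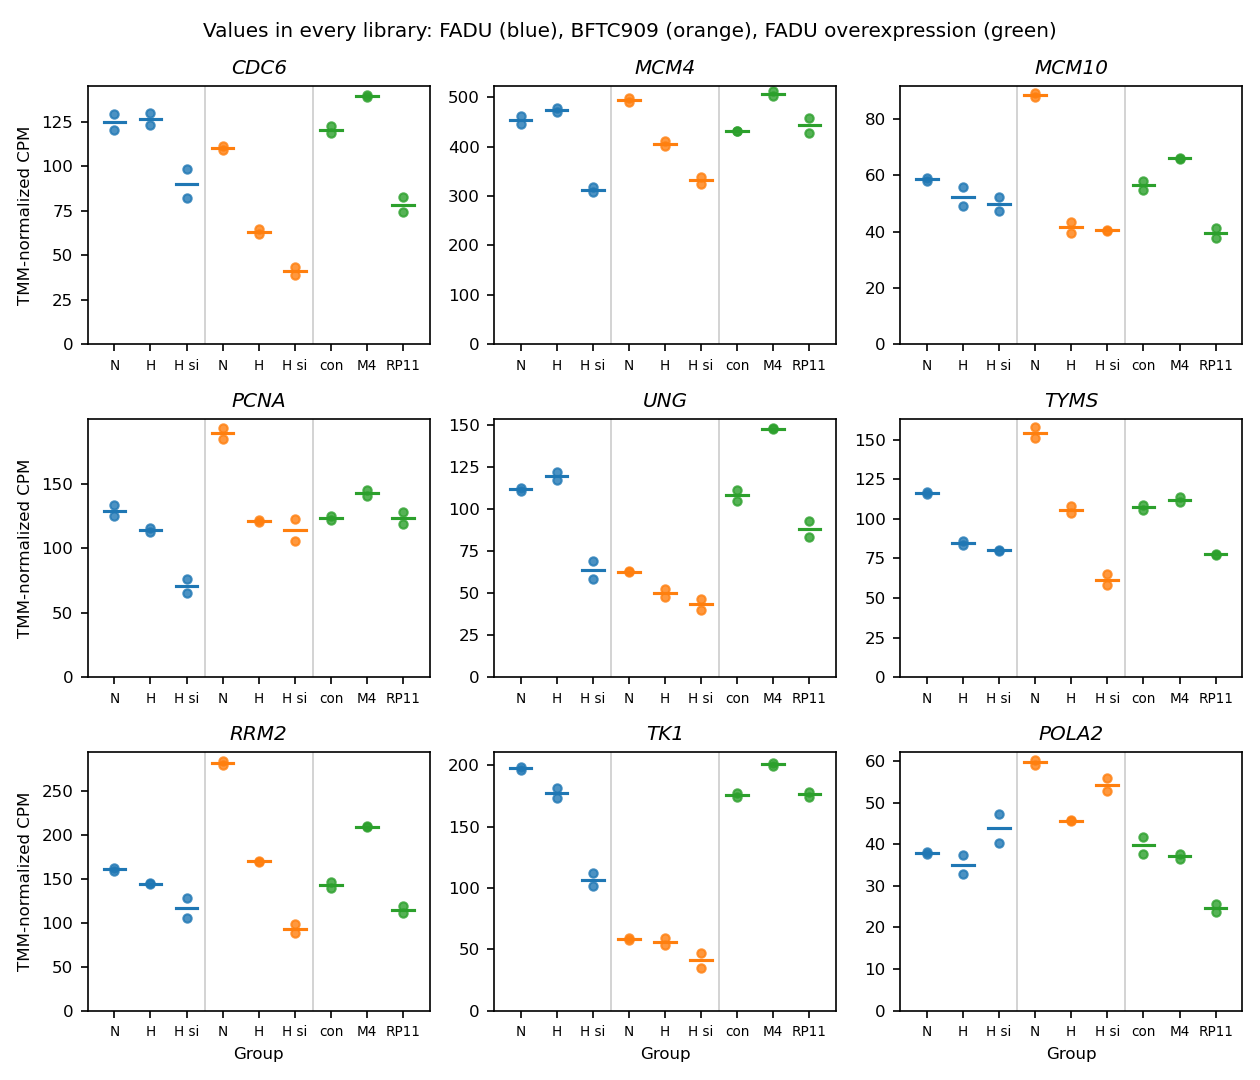
TMM-normalized CPM of 9 members in every library (dots) with group means (bars), on linear axes from 0. N, Scramble-si normoxia; H, Scramble-si hypoxia; H si, METTL4-si hypoxia; con, M4 and RP11, FADU OE of control, METTL4 and RP11-390F4.3. UNG and TK1 drop in the FADU METTL4-si libraries, while MCM10 drops in BFTC909 hypoxia from 89.2 and 87.7 to 39.5 and 43.5.

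Overexpression of METTL4 in normoxic FADU cells raised 2 members and lowered 0, against 8.0% higher and 10.5% lower of all 15644 genes tested. The median was 0.09 against 0.01 for all genes, and 35 of 41 members lay above 0. RRM2 rose from 146 and 139 in the control to 209 and 210, 1.47-fold (log2 0.55, SE 0.05, adjusted p = 9.1e-07). UNG rose from 105 and 112 to 148 and 148 (log2 0.45, SE 0.06, adjusted p = 3e-05). The replicates of METTL4 OE nearly coincided for both genes. All 10 licensing genes lay above 0, from 0.02 for MCM6 to 0.23 for MCM4, and none passed the fold limit. GINS4 was the lowest member, at 47.5 and 52.7 in the control and 44.8 and 46.9 in METTL4 OE (log2 -0.12, adjusted p = 0.146). edgeR on the recovered reads also found 2 members higher and 0 lower, and at an unadjusted limma p under 0.05 with no fold limit 18 were higher and 0 lower. At the adjusted p alone 14 members were higher. The count of 2 held when each library was left out in turn.

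RP11-390F4.3 OE, set against the same control libraries, lowered 15 members and raised 0, against 12.5% lower and 16.5% higher of all genes. The median was -0.31 against 0.01, with 35 of 41 below 0. Polymerase genes fell in 5 of 9 cases and helicase activation genes in 4 of 6, while only 1 of 11 genes of the clamp, loader, RPA and fragment group fell. POLA2 had the largest fall, from 37.7 and 41.8 in the control to 25.5 and 23.6, 37.1% lower (log2 -0.67, SE 0.07, adjusted p = 3.3e-06). POLA1, the catalytic subunit of the same polymerase, went from 135 and 138 to 92.7 and 92.2 (log2 -0.56, SE 0.04, adjusted p = 2.2e-07), and POLE, that of polymerase epsilon, from 229 and 227 to 156 and 152 (log2 -0.56, SE 0.04, adjusted p = 1.9e-07). The primase subunits PRIM1 and PRIM2, at -0.15 and -0.13, did not pass. CDC6 went from 123 and 119 to 82.9 and 74.1 (log2 -0.62, SE 0.05, adjusted p = 6.8e-07). CDC45, part of the helicase, went from 36.8 and 35.3 to 24.5 and 23.7 (log2 -0.56, SE 0.07, adjusted p = 1.7e-05). TYMS went from 106 and 109 to 77.9 and 77.4 (log2 -0.46, SE 0.05, adjusted p = 2.3e-06), and its groups did not come near each other. FEN1, the flap nuclease, went from 89.7 and 93.1 to 72.3 and 67.9 (log2 -0.38, SE 0.06, adjusted p = 7.5e-05), at the fold limit, and its call was lost without the second control or the second RP11-390F4.3 OE library. The clamp did not move with them: PCNA read 122 and 125 in the control and 128 and 119 in RP11-390F4.3 OE, with overlapping groups. POLD2, a polymerase delta subunit, was the highest member, at 89.3 and 89.7 in the control and 104 and 102 (log2 0.20, SE 0.06, adjusted p = 0.00985), short of 1.3-fold. edgeR found 18 members lower and 0 higher, and at an unadjusted limma p under 0.05 with no fold limit 33 were lower and 1 higher. With libraries centred on their median 22 were lower. Without the second RP11-390F4.3 OE library, which carries the weaker luminal signal, the members' median was -0.29, against 0.01 for all genes.

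**Figure D3:**
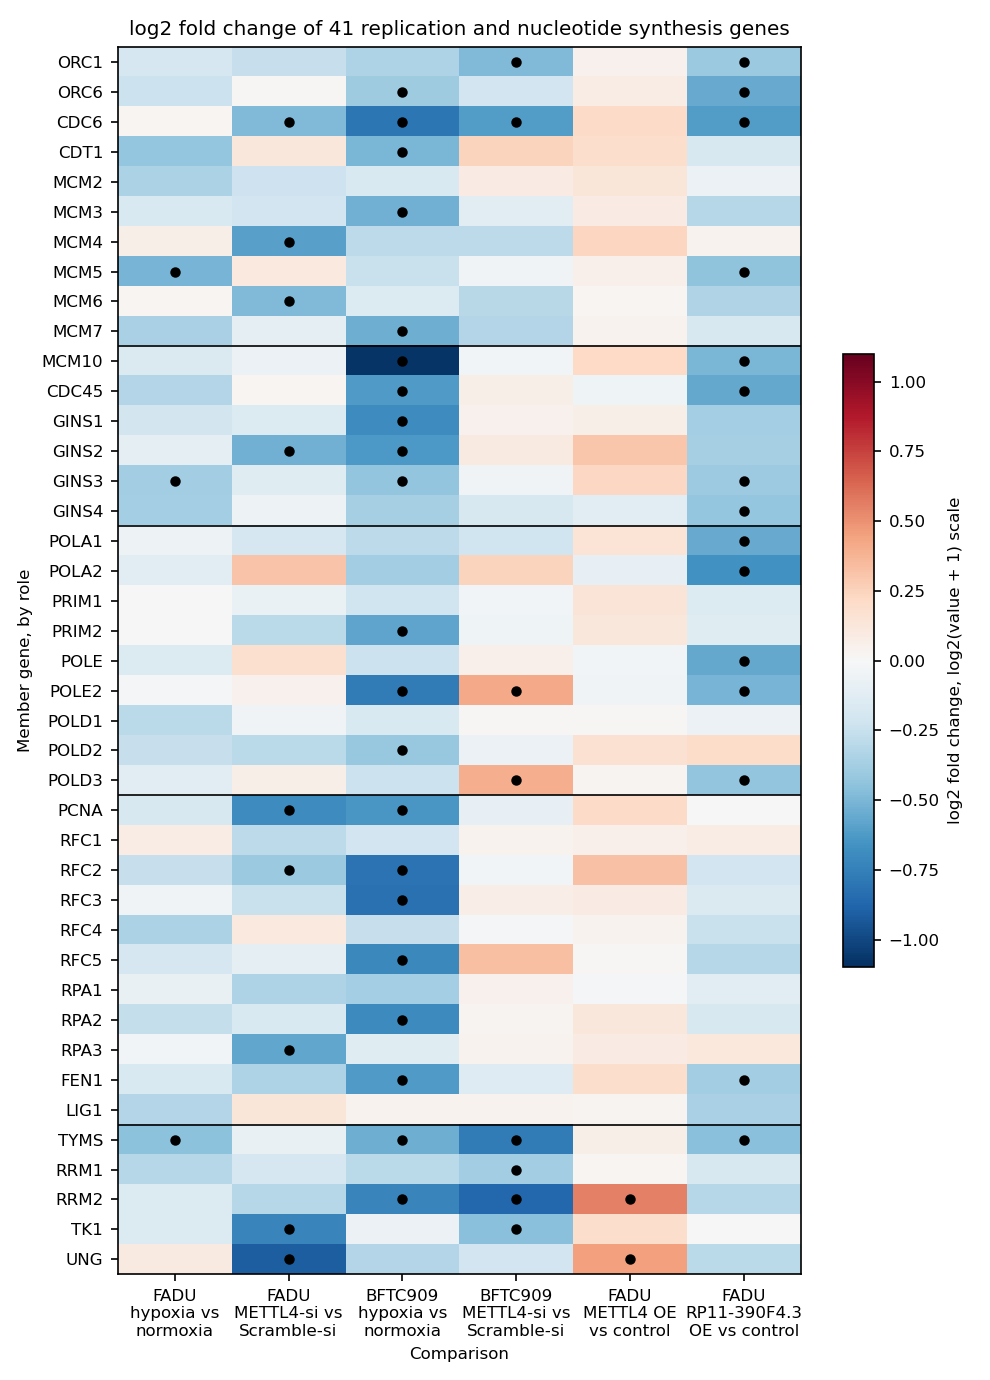
log2 fold change (colour, log2(value + 1) scale) of the 41 members in 6 comparisons, ordered by role, with black dots on the changes called at 1.3-fold and adjusted p under 0.05. Blue fills the BFTC909 hypoxia column, where 21 members fell, and dotted red cells are few, such as RRM2 and UNG in METTL4 OE.

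In the METTL4 mutant clones most members lay above the control, as they did in METTL4 OE. There was 1 control library and each clone is a separate line, so no test was made and the values describe these libraries alone. Both clones were at least 1.3-fold above the control for 12 of 41 members and below it for 0, against 8.94% of all 15719 genes above and 11.8% below. The median of the members' mean log2 ratios was 0.33, against -0.004 for all genes, 40 of 41 were above 0, and the clones had the same sign for 38. MCM10 was the highest, at 15.6 in the control, 29.9 in clone 1 and 31.3 in clone 2. GINS1 read 25.4 in the control and then 49.4 and 39.2, RRM2 read 43.96 and then 83.5 and 65.4, and MCM3 read 78.8 and then 129 and 132. The clones differed from each other by less than from the control for these 4 genes. ORC1, MCM4, CDC45, GINS4, POLA1, RFC3, RFC4 and FEN1 were the other members past 1.3-fold in both clones. UNG, at 51.0 and then 52.5 and 54.1, and TK1, at 88.2 and then 79.9 and 101, stayed near the control, and TK1 had opposite signs in the clones. POLD2 was the only member with a mean below 0, at 41.3 in the control and 38.0 and 41.8. METTL4 read 12.5 in the control, 15.9 in clone 1 and 10.6 in clone 2, and the edited motif itself is not seen in these values. Between 40.9% and 43.0% of the reads of this table were on no single gene, and the libraries held 17781791 to 20063873 reads on genes.

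**Figure D4:**
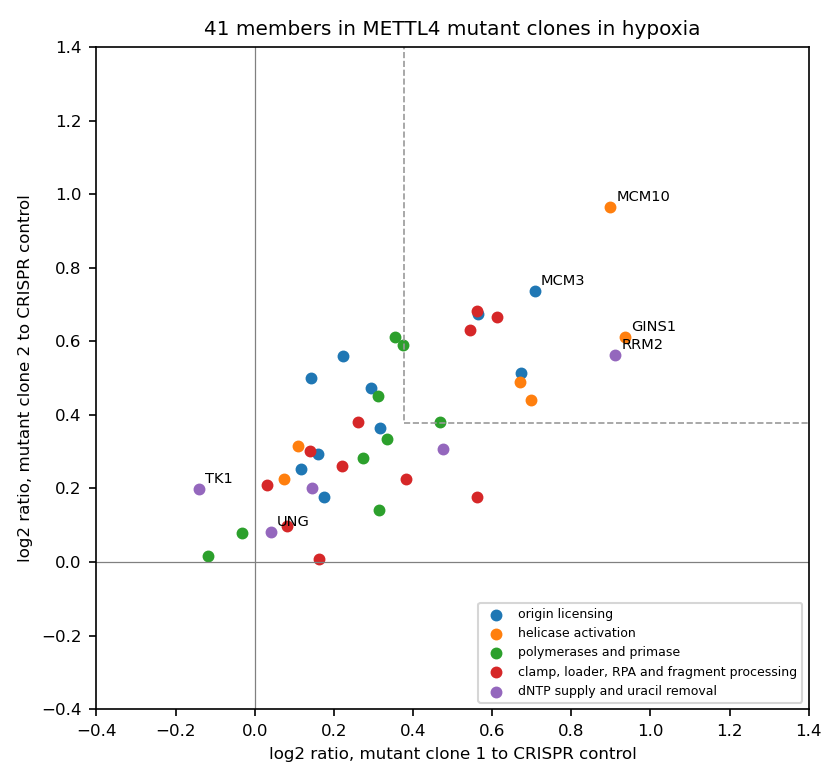
log2 ratio to the CRISPR control of each member in mutant clone 1 (x axis) and mutant clone 2 (y axis), coloured by role. Points inside the dashed corner are at least 1.3-fold higher in both clones, 12 of 41, and MCM10, GINS1, RRM2 and MCM3 lie farthest out.

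Across the 6 tested comparisons 7 members were called in 0, 17 in 1, 12 in 2, 3 in 3 and 2 in 4. All genes were not tallied in this way, so these counts have no background beside them. Comparisons within a table share a group of libraries, so their calls are not independent. CDC6 and TYMS were the members called in 4, each time lower. GINS3 was lower in 3, and POLE2 and RRM2 were lower in 2 and higher in 1. The members called in 0 were MCM2, PRIM1, POLD1, RFC1, RFC4, RPA1 and LIG1. MCM2 lay between -0.35 (FADU hypoxia) and 0.13 (METTL4 OE), and RFC1, the large clamp loader subunit, between -0.29 and 0.08. Members of a complex did not always move together. In the 5-subunit RFC loader, RFC2, RFC3 and RFC5 fell in BFTC909 hypoxia, by 0.81, 0.82 and 0.71 on the log2 scale, while RFC1 at -0.21 and RFC4 at -0.25 did not pass. In the RPA trimer RPA2 fell by 0.70 there, and RPA1 at -0.37 and RPA3 at -0.14 did not pass.

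Other genes of the pathway, which are no members, were counted from 4 further lists. The shares of all genes to set beside them, lower and higher, are those given with each comparison: 9.65% and 9.73% in FADU hypoxia, 15.3% and 12.5% in FADU METTL4-si, 18.3% and 17.9% in BFTC909 hypoxia, 11.7% and 13.2% in BFTC909 METTL4-si, 10.5% and 8.0% in METTL4 OE and 12.5% and 16.5% in RP11-390F4.3 OE. Of 38 other replication genes (such as the CDC7 kinase subunits, the fork protection genes and the chromatin assembly genes), 19 were lower and 1 higher in BFTC909 hypoxia, 10 lower and 1 higher in RP11-390F4.3 OE, 6 and 0 in FADU hypoxia, 3 and 0 in FADU METTL4-si, 3 and 1 in BFTC909 METTL4-si and 0 and 1 in METTL4 OE. Of 26 other nucleotide synthesis genes, 12 were lower and 1 higher in BFTC909 hypoxia, 7 and 0 in FADU hypoxia, 7 and 0 in FADU METTL4-si, 4 and 2 in BFTC909 METTL4-si, 2 and 0 in METTL4 OE and 3 and 2 in RP11-390F4.3 OE. CAD, which starts pyrimidine synthesis, fell by 0.66 and ADSL, a purine synthesis enzyme, by 0.62 in FADU hypoxia. CHTF8, part of an alternative clamp loader, fell by 0.87 in FADU METTL4-si. TOP1, the topoisomerase that relieves twist ahead of forks, fell by 1.07 in BFTC909 hypoxia, as far as MCM10. SAMHD1, which degrades dNTPs, rose by 1.29 in BFTC909 METTL4-si, the libraries in which RRM2 and TYMS fell, from 8.67 and 7.45 to 21.2 and 21.1. In METTL4 OE, where RRM2 rose, SAMHD1 went from 44.1 and 47.7 to 29.2 and 31.9, lower by 0.57 on the log2 scale with an adjusted p of 1.2e-05. The mutant clones had both genes above the control, with SAMHD1 at 20.4 in the control and then 26.8 and 23.2. A link between SAMHD1 and RRM2 was not tested.

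Of 24 S phase regulators, 12 were lower and 0 higher in BFTC909 hypoxia, 4 and 1 in FADU hypoxia, 6 and 2 in FADU METTL4-si, 6 and 3 in BFTC909 METTL4-si, 0 and 5 in METTL4 OE and 7 and 2 in RP11-390F4.3 OE. CCND1 (cyclin D1), which starts the passage through G1, fell from 811 and 807 to 408 and 374 in FADU hypoxia and from 270 and 265 to 38.5 and 39.1 in BFTC909 hypoxia. In the METTL4-si libraries CCND1 was higher than in Scramble-si hypoxia, at 829 and 699 in FADU (adjusted p = 0.000934) and at 60.9 and 191 in BFTC909 (adjusted p = 0.0379), where the higher library is the one with luminal markers. CDC25A, which activates CDK2, fell by 1.29 in BFTC909 hypoxia and by 1.04 in RP11-390F4.3 OE. CDKN1A (p21), an inhibitor of the S phase kinases, rose from 7.87 and 9.86 to 29.9 and 31.9 in RP11-390F4.3 OE, where 15 members fell, and to 16.2 and 14.5 in METTL4 OE, where 2 members rose. In BFTC909 it went from 3.13 and 3.11 in Scramble-si hypoxia to 7.46 and 15.4 in METTL4-si (adjusted p = 0.006), again highest in the library with luminal markers. CCNE2, a cyclin of S phase entry, rose by 0.77 in METTL4 OE, and E2F2, an activating E2F factor, fell by 0.77 in RP11-390F4.3 OE. In the mutant clones CDKN1A read 6.64 and 6.47 against 16.5 in the control. Mitosis genes had medians of the same sign as the members in all 6 comparisons, but other counts: 17 of 20 were lower in BFTC909 METTL4-si, against 5 of 20 in BFTC909 hypoxia and 1 of 20 in RP11-390F4.3 OE, with 6, 3 and 0 in FADU hypoxia, FADU METTL4-si and METTL4 OE. Differences between the lists were not tested. Leaving out the libraries that carry luminal markers, a setting chosen for these lists after the data were seen, left 1 library in a compared group. The medians of the other replication, nucleotide, regulator and mitosis lists were then -0.20, -0.25, -0.19 and -0.27 in FADU hypoxia (all genes -0.03). In FADU METTL4-si they were -0.07, -0.08, -0.09 and -0.15 (all genes -0.01). In BFTC909 METTL4-si they were 0.03, -0.02, 0.01 and -0.41 (all genes 0.00015). In RP11-390F4.3 OE they were -0.21, -0.07, -0.003 and -0.04 (all genes 0.01). In the mutant clones 12 of 38 other replication genes were at least 1.3-fold above the control in both clones and 1 was as far below it. These counts were 5 and 0 of 26 nucleotide genes, 7 and 2 of 24 regulators and 7 and 0 of 20 mitosis genes. Of all genes 8.94% were above and 11.8% below.

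**Figure D5:**
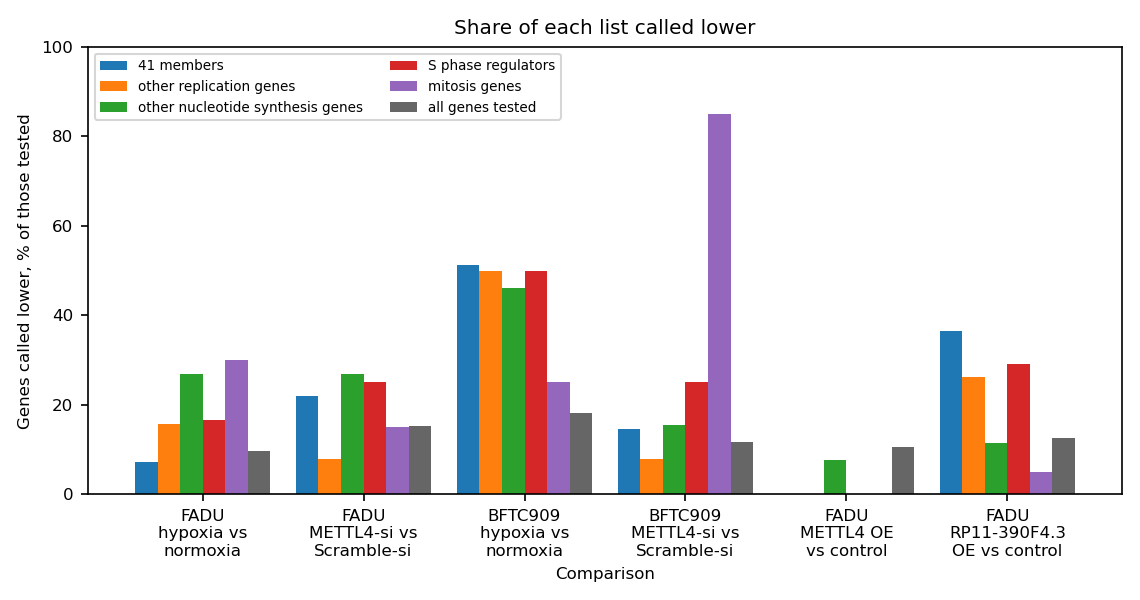
Share of each gene list called lower in the 6 tested comparisons, in percent of the genes tested, with all genes in grey. In BFTC909 hypoxia 21 of 41 members and 5 of 20 mitosis genes were lower, and in BFTC909 METTL4-si 6 of 41 members and 17 of 20 mitosis genes.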

How the data were processed

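Total RNA was depleted of ribosomal RNA, made into stranded libraries and sequenced as paired ends. Per the study's methods and the submitters' processing notes, the authors used Trim Galore for trimming, HISAT2 for alignment against hg19 and HTSeq for gene counts, and deposited, per gene, a signal value that is CPM after edgeR's TMM scaling, in 4 tables normalized separately. Versions, annotation and the strand setting are not given in the sources used here. Identifiers were matched to symbols by GENCODE on GRCh37. Undoing the scaling gave whole reads for 100% of values (tolerance 0.05) in the replicated tables.

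Genes at 1 or more in at least 2 libraries were tested with limma 3.58.1 (R 4.3.3) on log2(value + 1), with all 6 libraries of a table in 1 fit (3 residual degrees of freedom), Benjamini-Hochberg adjustment over all genes and a limit of 1.3-fold and 0.05. edgeR 4.0.16 on the recovered reads was an alternative. Fold changes are on the log2(value + 1) scale. The mutant table, with 1 control, was described without a test. Labels do not say that replicates are separate cultures, so p-values measure only the spread between these libraries. For each comparison the text names the largest called change of each role (up to 5) and the member at the opposite end, and any other name was chosen after its values were seen. A gene of the other lists that the rule would name is not reported here. The members and lists were chosen with earlier results of these data known. The fits were tested on simulated counts.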

Additional observations from a re-analysis of the deposited data

Results flagged for a closer look

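RPA3, the small subunit of RPA, was singled out because in the 2 lines the libraries labelled METTL4-si lay on opposite sides of Scramble-si hypoxia: its log2 fold change was -0.57 in FADU, from 32.0 and 35.0 to 21.6 and 22.8, and 0.042 in BFTC909, from 25.2 and 26.1 to 26.7 and 26.2. The difference between the lines was not tested, since their tables were normalized separately, and of the 2 values only that in FADU was called.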

How the results depend on the processing

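Of the counts of members called, 196 of 224 values under other settings equalled the main count or stayed within 1.5 times of it. These include main counts of 0 that stayed at 0. The medians and single members mostly held too (92 of 99 and 383 of 408). Members lower in FADU hypoxia, FADU METTL4-si, BFTC909 hypoxia, BFTC909 METTL4-si and RP11-390F4.3 OE numbered 0, 0, 1, 0 and 0 at 2-fold, and 8, 15, 31, 10 and 29 with no fold limit. Members higher numbered 0 at 2-fold in BFTC909 METTL4-si and METTL4 OE, and 4, 14 and 1 with no fold limit in BFTC909 METTL4-si, METTL4 OE and RP11-390F4.3 OE. All genes were not counted at either limit. The 2 members higher in BFTC909 METTL4-si became 0 with a pseudocount of 5, 0 with libraries centred on their median and 1 with the compared groups fitted alone. Centring shifted fold changes by -0.10 to 0.07, gave 2, 11, 18, 9 and 22 members lower in the order above, and moved the medians of BFTC909 hypoxia, BFTC909 METTL4-si and RP11-390F4.3 OE to -0.32, -0.13 and -0.39. Without the libraries with luminal markers, the members' median in FADU hypoxia was -0.20. The mutant clones' median of 0.33 was 0.30 with a pseudocount of 5, 0.35 when centred and 0.31 in clone 1 alone.

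With each library left out in turn, members lower ranged from 0 to 4 in FADU hypoxia, 4 to 11 in FADU METTL4-si, 16 to 21 in BFTC909 hypoxia, 3 to 5 in BFTC909 METTL4-si and 12 to 17 in RP11-390F4.3 OE, and members higher from 0 to 3 in each METTL4-si comparison. LIG1 in BFTC909 hypoxia, at 0.04, ranged from -0.012 (without the second normoxia library) to 0.084. The lone library of a group was then assumed to vary like the others. Where no cause is visible in a setting's own construction, the cause was not tested.

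The correlations of replicate differences between groups ran from -0.07 to 0.15, apart from 0.65 for FADU normoxia and METTL4-si. Outside that pair of groups, replicate numbers did not pair the samples. The first library of each group in that pair carries luminal markers, and the part of these libraries in the 0.65 was not tested. With a replicate block the counts lower were 3, 9, 21, 6 and 15, equal to those without it.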
